A study of Mus musculus with 4 samples.

Results

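The genes described here are 28 mouse genes of cholesterol synthesis and of its control by the sterol regulatory element binding proteins (SREBPs), out of 21887 protein-coding genes. They were chosen by name for their place in the pathway, with no measured value as a criterion: 7 regulators, 20 enzymes and 1 sterol carrier. Earlier results of these data were known when they were chosen. The data are chromatin immunoprecipitation (ChIP-seq) maps of H3K79me2, dimethylation of histone H3 at lysine 79, in double-negative thymocytes of the DN3 stage. The cells were grown in culture from C57BL/6 haematopoietic stem cells on OP9-DL1, a stromal line that displays a Notch ligand, with Flt-3L and IL-7. Control cells received DMSO, and the inhibitor cells received A939572, which blocks the stearoyl-CoA desaturase SCD1 that makes oleic acid. The labels used here state no dose. Each condition had 1 ChIP library and hence 1 list of broad peaks, so no value has a replicate error and no difference between the conditions has a p-value. The read depth behind the lists is unknown.

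Cholesterol is built from acetyl-CoA through mevalonate, the prenyl diphosphates, squalene and lanosterol. When sterols are scarce in the endoplasmic reticulum, SCAP carries the SREBPs to the Golgi, where a pair of proteases frees the part that enters the nucleus and activates the genes of this pathway. INSIG proteins hold SCAP back when sterols are plentiful. H3K79me2 is placed by DOT1L over the first part of transcribed genes, so its peaks usually lie downstream of a gene's start.

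For each gene, the covered percent is the share of the gene body (RefSeq, build mm10) that lies under peaks. A gene is called marked when at least 50% of it is covered. A peak is called strong when its deposited q-value is at most 0.05. Folds and q-values are the authors' own values for each peak, averaged over the peak. They serve here to describe peaks within a list.

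Sequences just upstream of 4 gene starts are shown because the peaks at these genes range from strong to weak. Hmgcs1 lay under strong peaks in both lists, Lbr had the strongest control peak of the 28 genes, Insig1 had an inhibitor peak that began at its start, and Mvk had 1 weak inhibitor peak. Each line holds the 180 bases before the start (RefSeq, GRCm38.p6), with the sterol element TCACNCCAC, the E-box CACGTG and the CCAAT box in capitals on either strand. They come from chr13:119690171-119690350 (plus strand), chr1:181842402-181842581 (minus), chr5:28071232-28071411 (plus) and chr5:114444089-114444268 (plus).
Hmgcs1: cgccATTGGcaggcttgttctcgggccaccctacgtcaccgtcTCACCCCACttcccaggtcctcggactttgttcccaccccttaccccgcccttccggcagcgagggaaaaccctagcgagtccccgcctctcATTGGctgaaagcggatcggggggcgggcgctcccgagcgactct
Lbr: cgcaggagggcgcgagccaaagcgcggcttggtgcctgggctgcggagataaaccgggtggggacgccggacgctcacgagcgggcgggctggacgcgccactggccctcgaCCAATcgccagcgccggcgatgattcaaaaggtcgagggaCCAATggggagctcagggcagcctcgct
Insig1: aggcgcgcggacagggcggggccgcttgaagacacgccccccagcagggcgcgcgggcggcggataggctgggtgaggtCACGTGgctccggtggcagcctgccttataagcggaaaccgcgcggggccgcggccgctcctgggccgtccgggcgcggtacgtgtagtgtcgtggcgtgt
Mvk: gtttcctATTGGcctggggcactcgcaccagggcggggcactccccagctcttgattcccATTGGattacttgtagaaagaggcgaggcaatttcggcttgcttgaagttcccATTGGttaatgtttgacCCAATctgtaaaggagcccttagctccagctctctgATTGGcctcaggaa

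All 28 genes held at least 1 base of inhibitor peak, and 20 of 28 held at least 1 base of control peak. Among all protein-coding genes these shares were 51.4% and 55.3%. Inhibitor peaks marked 21 of the 28 genes (75%, 95% Wilson interval 56.6 to 87.3), against 26.1% of all genes. Control peaks marked 1 of 28, Hmgcs1 (3.57%, 0.633 to 17.7), against 5.47% of all genes. These intervals reflect counting error alone, as if genes were independent. By this 50% cut the inhibitor share stood above that of all genes, and the control share stood near it. By some other measures the control share stood above that of all genes. A strong control peak lay on 14.3% of the 28, against 3.92%. Over the first 5 kb control peaks marked 10 of 28, against 2986 of 21887. Among genes with a strong inhibitor peak the share marked by control peaks was lower, 4.17% against 12.4%.

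Inhibitor coverage exceeded control coverage by at least 25 points at 23 of 28 genes (82.1%, 64.4 to 92.1), against 30.1% of all genes. Control coverage exceeded inhibitor coverage by that much at 0 of 28, which allows a share of up to 10.7% by a limit of 3 counts (Wilson upper bound 12.1%), against 3.07% of all genes. The median gene was covered over 12.6% under DMSO and 74.7% under the inhibitor. The median difference was 50.5 points, with a range from 2.62 to 100. Over all genes the median covered percent was 2.24% under DMSO and 0.446% under the inhibitor, and the median difference was 0 points. Only 51.4% of all genes held any inhibitor peak. Of all genes with a strong inhibitor peak, 74.8% were at least 25 points higher under the inhibitor. The median length was 17.8 kb for the 28 genes and 17.2 kb for all, but the 28 spread less, with quartiles of 13.5 and 27.4 kb against 5.67 and 44.3 kb. None of the 28 exceeded 58.1 kb, and covered percent depends on length.

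With strong peaks alone the median difference was 63.4 points, against 50.5 with all peaks. The cut itself falls unevenly on the 2 lists. It keeps 804 of 124962 control peaks (11.1 of 235 Mb) and 6528 of 35018 inhibitor peaks (153 of 234 Mb). The part of this in the values of the 28 genes was not tested. At least 1 strong inhibitor peak lay on 24 of 28 genes (85.7%, 68.5 to 94.3), against 34.7% of all genes. A strong control peak lay on 4 of 28 (14.3%, 5.70 to 31.5), against 3.92% of all genes, and these were Hmgcs1, Sqle, Lbr and Ggps1. Strong peaks alone marked 19 genes under the inhibitor and 1 under DMSO, against 19.6% and 1.33% of all genes. The 25-point difference in favour of the inhibitor was met by the same count of 23 genes with strong peaks alone, against 26.3% of all genes. When the inhibitor peaks were restricted to the same covered length as the strong control peaks (11.1 Mb), none of the 28 genes differed in favour of the inhibitor by 25 points, and 2 (7.14%) did in favour of the control. Over all genes these shares were 0.914% and 1.59%. The kept inhibitor peaks had a −log10 p of at least 16.8, and the highest on the 28 genes was 14.9. The cut thus left no inhibitor peak on any of the 28, so this setting cannot show which condition covers them further. The share of cells with the mark, its amount per cell, and the depth or enrichment of a library cannot be told apart here.

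**Figure D1:**
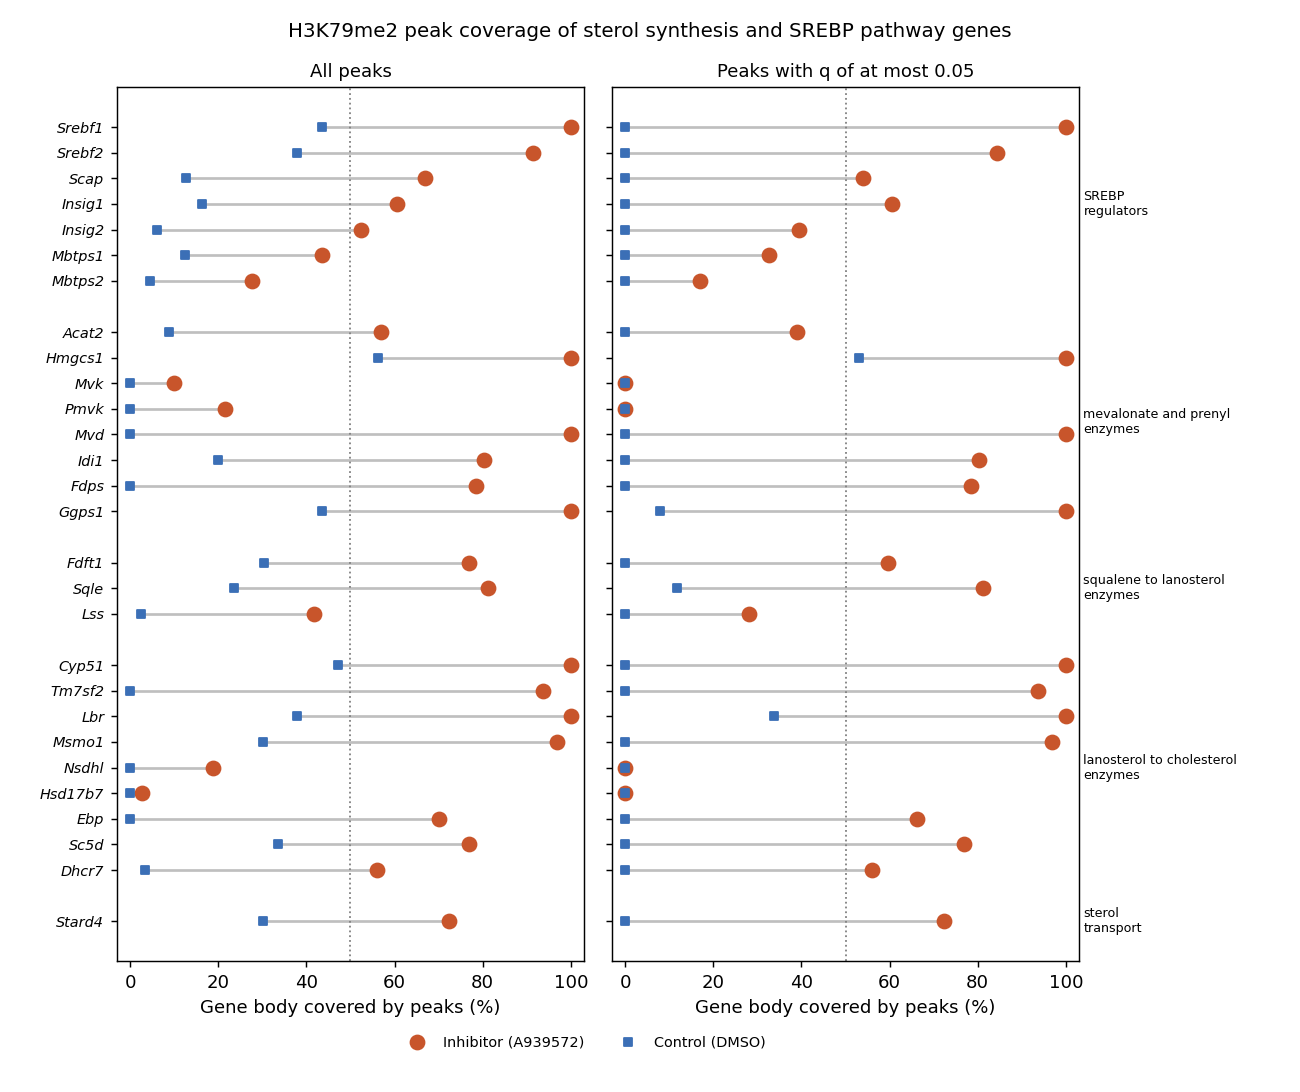
Covered percent of the gene body (x axis) for each of the 28 genes (rows, grouped by role), from all peaks (left) and from peaks with q of at most 0.05 (right). Blue squares are the single control library, orange circles the single inhibitor library, and the dotted line is 50%. With all peaks the circle lies to the right of the square in every row, and with strong peaks Mvk, Pmvk, Nsdhl and Hsd17b7 are at 0 in both lists.

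The regulators were covered in every case under the inhibitor, with a median of 60.6%, and by weak peaks alone under DMSO, with a median of 12.8%. Any inhibitor peak lay on 51.4% of all genes and a strong control peak on 3.92%. The 0 of 7 regulators with a strong control peak thus lay near the share of all genes. Srebf2 encodes the SREBP that chiefly drives cholesterol synthesis (chr15:82147269-82205379). It was covered over 37.8% under DMSO and 91.5% under the inhibitor. Its main inhibitor peak spanned 57.5 kb with a fold of 4.31 and a −log10 q of 12.9, the highest of the 28 genes. The widest control peak at Srebf2 spanned 21.3 kb with a fold of 2.05 and a −log10 q of 0.675, so it was wide but not strong.

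Srebf1 encodes the SREBP that favours fatty acid synthesis, of which Scd1 is a target gene (chr11:60199084-60224186). It was covered over 43.6% under DMSO by 2 weak peaks and over 100% under the inhibitor. The inhibitor peak there spanned 130 kb, of which 105 kb lay outside Srebf1, over the neighbour Rai1 and its surroundings. Srebf1 also overlaps Rai1 by annotation, so part of this coverage cannot be given to 1 gene.

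Scap, the sterol-sensing escort of the SREBPs (chr9:110333288-110384949), was covered over 12.8% and 66.9%. Its strong inhibitor peak of 27.9 kb began 119 bp past the start, and 3 weak peaks followed it in the second part of the gene. Insig1 and Insig2 encode the proteins that hold SCAP in the endoplasmic reticulum. Insig1 was covered over 16.2% and 60.6%, and Insig2 over 6.10% and 52.3%. The fold of the strongest inhibitor peak was 3.09 at Insig1 and 2.50 at Insig2, with −log10 q of 6.88 and 2.19.

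Mbtps1 and Mbtps2 encode the site-specific proteases that release the SREBPs, and they were the least covered regulators. Mbtps1 was covered over 12.4% and 43.5%, and Mbtps2, on chromosome X, over 4.56% and 27.7%. Both are long genes (50.7 and 50.9 kb) whose strong inhibitor peak lay at the start. Over the first 5 kb from the start, both were covered over 100% under the inhibitor, and over 39.6% (Mbtps1) and 46.4% (Mbtps2) under DMSO. The peak at Mbtps1 had the highest fold of all 28 genes, 4.32. Mbtps2 contains the gene Yy2 within its body.

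Among the 8 enzymes that lead from acetyl-CoA to the prenyl diphosphates, 6 were marked under the inhibitor and 1 under DMSO. The shares of all genes were 26.1% and 5.47%. Acat2, the thiolase that joins acetyl-CoA units, was covered over 8.76% and 56.9%. Its relative Acat3 lies 2446 bp away, and how reads common to both were placed is not given in the sources used here. Hmgcs1, which makes hydroxymethylglutaryl-CoA (chr13:119690351-119708260), was covered over 56.1% under DMSO and 100% under the inhibitor. Its strong control peak of 10.6 kb reached from 1.12 kb before the start to 9.48 kb past it, with a fold of 2.61 and a −log10 q of 3.20. The inhibitor peak of 30.5 kb contained it, with a fold of 4.16 and a −log10 q of 11.9. Hmgcs1 was therefore the 1 gene of the 28 marked in both conditions, against 4.36% of all genes.

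The kinases that phosphorylate mevalonate stood apart from their neighbours in the pathway. Mvk, mevalonate kinase, had no control peak, and its inhibitor peak covered 1.63 kb of a gene of 16.3 kb. Pmvk, phosphomevalonate kinase, lacked a control peak and was covered over 21.5%. The −log10 q of these single inhibitor peaks was 0.452 at Mvk and 0.579 at Pmvk, so neither was strong. The next enzyme, the decarboxylase Mvd, had no control peak either but was covered over 100% under the inhibitor by a strong peak of 19.4 kb, with a fold of 2.46. That peak ran on over the neighbour Cyba.

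Idi1, the isomerase of isopentenyl diphosphate, was covered over 19.95% and 80.2%, with an inhibitor fold of 3.81. Fdps, farnesyl diphosphate synthase, lacked a control peak and was covered over 78.6% under the inhibitor, with a fold of 2.99. Ggps1 makes the geranylgeranyl groups that anchor small GTPases (chr13:14049790-14063566). It was covered over 43.5% under DMSO, with a strong peak of 1.09 kb that began 896 bp past its start, and over 100% under the inhibitor. The inhibitor peak spanned 109 kb, and 95.5 kb of it lay outside Ggps1, reaching over Arid4b, whose start lies 296 bp from that of Ggps1.

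The 3 enzymes from farnesyl diphosphate to lanosterol all held control peaks, over 2.55% to 30.4% of the gene, and inhibitor peaks over 41.6% to 81.3%. Any control peak lay on 55.3% of all genes and any inhibitor peak on 51.4%. Fdft1, squalene synthase, was covered over 30.4% and 77.0%, and its end overlaps Ctsb. Sqle, squalene epoxidase (chr15:59315092-59331193), was covered over 23.5% and 81.3%. One of its 3 control peaks was strong, spanning 1.91 kb with a fold of 2.33 and a −log10 q of 1.42. This was the strong control peak closest to the threshold, and the nearest gene below it was Cyp51 with 0.822. Lss, lanosterol synthase, was covered over 2.55% and 41.6%, and its inhibitor peaks thinned out from the start, with a strong one of 7.78 kb followed by 2 weak ones.

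From lanosterol to cholesterol, 7 of 9 enzymes were marked under the inhibitor and 0 under DMSO, against 26.1% and 5.47% of all genes. The 0 of 9 (Wilson upper bound 29.9%) lay near the share of all genes. Cyp51, lanosterol demethylase (chr5:4080674-4104697), was covered over 47.2% by 4 separate weak control peaks and over 100% by 1 strong inhibitor peak of 28.2 kb, with a fold of 3.17. The following reduction can be carried out by either of a pair of enzymes, TM7SF2 and the lamin B receptor LBR, and their genes differed under DMSO. Tm7sf2 had no control peak, whereas Lbr (chr1:181815315-181842401) was covered over 37.9%. The strong control peak at Lbr spanned 9.12 kb with a fold of 3.18 and a −log10 q of 7.45, the highest control values of the 28 genes. Under the inhibitor Tm7sf2 was covered over 93.8% and Lbr over 100%, with folds of 3.61 and 3.68. The inhibitor peak at Tm7sf2 covered 4.72 kb of that gene and 10.3 kb beyond it, over Syvn1, Mrpl49, Fau and Znhit2, and Tm7sf2 also overlaps Vps51.

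Msmo1, a methylsterol oxidase, was covered over 30.0% and 96.8%, and Sc5d, a sterol desaturase, over 33.5% and 76.9%. The control peaks at both were weak, and the inhibitor folds were 3.27 and 3.63. Ebp, a sterol isomerase on chromosome X, lacked a control peak and was covered over 70.1% under the inhibitor, with a fold of 2.77. Dhcr7, the reductase at the end of one branch of the pathway, was covered over 3.39% and 56.1%, with an inhibitor fold of 3.46. Stard4, a cytosolic carrier of cholesterol, was covered over 30.2% and 72.4%, with an inhibitor fold of 3.15.

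Nsdhl and Hsd17b7 encode enzymes of sterol demethylation and held no strong peak. Nsdhl, also on chromosome X, lacked a control peak and was covered over 18.8% under the inhibitor by a peak of 9.56 kb with a −log10 q of 1.21, just under the threshold. It lay over the start, and the first 5 kb of Nsdhl were covered completely. Hsd17b7 had no control peak and the least inhibitor coverage of the 28 genes, 2.62%, from a peak of 1.43 kb across its start with a −log10 q of 0.134. On chromosome X, 25.3% of 966 coding genes held any control peak, against 57.4% of autosomal genes, and 30.5% held any inhibitor peak, against 53.0%. Of the 3 pathway genes on this chromosome 1 held a control peak and 3 held an inhibitor peak.

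**Figure D2:**
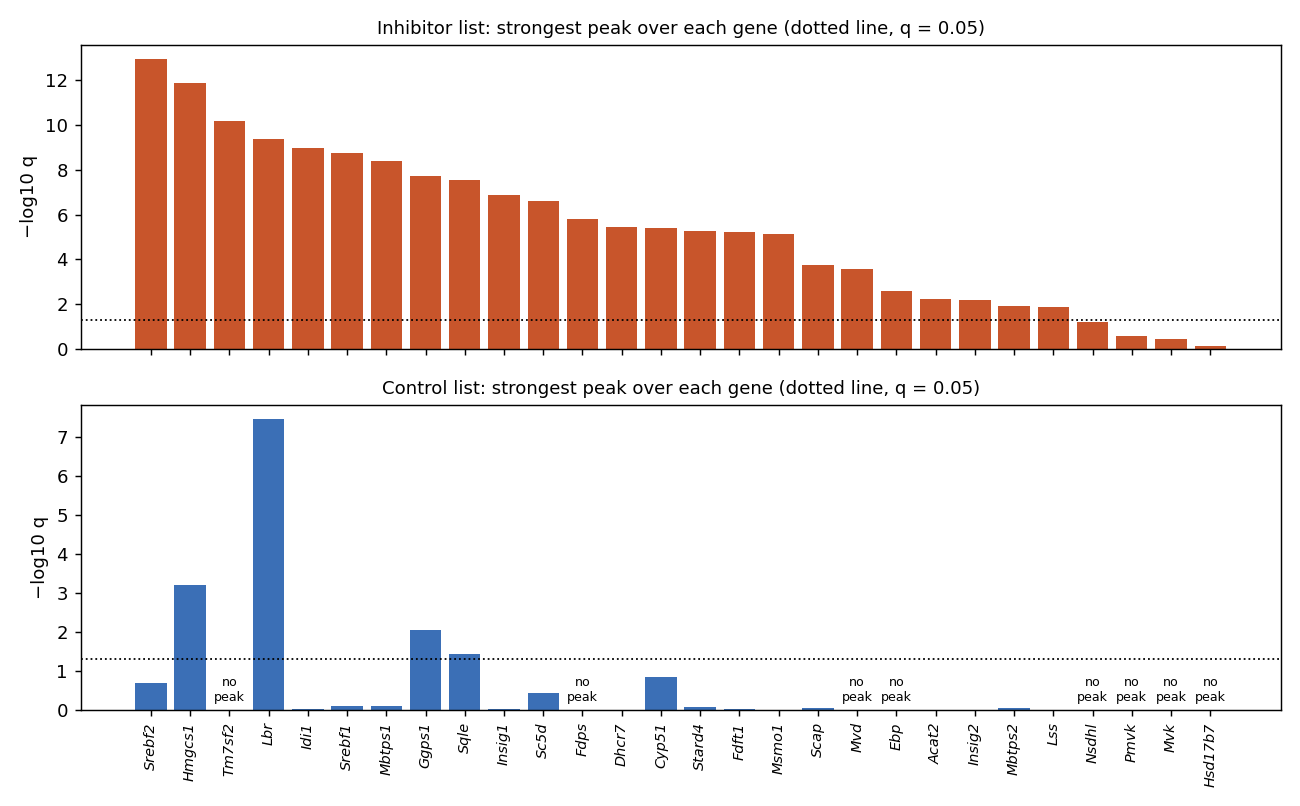
Strongest −log10 q (y axis, linear) of any peak over each gene under the inhibitor (top) and the control list (bottom), 1 library each, with genes sorted by the inhibitor value and different y ranges. The inhibitor values run from 12.9 at Srebf2 to 0.134 at Hsd17b7, and 4 control bars pass the dotted line at q of 0.05.

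The strongest peak of each gene can be placed within its own list. Among the 35018 inhibitor peaks, the median gene had 6.88% of the list above it, and the range was from 1.05% at Srebf2 to 53.3% at Hsd17b7. Among the 124962 control peaks, the median over the 20 genes with a peak was 9.28%, and Lbr stood highest with 0.113% of the list above it. Control peaks with a −log10 q of 0 are tied at 1 place, with 26.4% of the list above them. The median −log10 q of the strongest control peak was only 0.0516, so a high place there does not mean a strong peak. These places describe each list alone, since the lists differ in length. The median fold of the strongest peak was 3.16 over 28 genes under the inhibitor, where the median of all peaks was 1.66. Under DMSO it was 1.75 over 20 genes, where the median of all peaks was 1.66. These are unlike measures, since the strongest peak of a gene is picked by its q-value and the list median takes every peak. Strongest-peak values over all coding genes are not given here, so the gap is not shown to be particular to the 28 genes.

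Control peaks at these genes were narrower than the inhibitor peaks and mostly lay inside them. The 39 control peaks over the 28 genes had a median width of 1.73 kb, and the 45 inhibitor peaks one of 7.21 kb. The medians over the whole lists were 1.29 and 1.76 kb. Of the control peaks, 35 of 39 overlapped an inhibitor peak and 30 lay wholly inside inhibitor peaks. Of all control peaks 21.3% overlapped an inhibitor peak and 15.7% lay wholly inside, and of the 57716 over coding genes 41.1% and 32%. All 4 strong control peaks overlapped a strong inhibitor peak. By gene, 856 of the 858 coding genes with a strong control peak also held a strong inhibitor peak, so this was not particular to the 28. The 4 control peaks without an inhibitor counterpart were weak, 1 each at Mbtps1, Acat2, Sqle and Stard4. A single peak made up the inhibitor coverage at 19 of the 28 genes, including Srebf1, Hmgcs1, Cyp51 and Lbr.

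Start positions were given for 24 of the 28 genes. Inhibitor peaks covered the most upstream start of 18 of the 24, against 29.2% of 17492 coding genes with a start. Control peaks covered 3 of 24, Hmgcs1, Cyp51 and Msmo1, against 7.37%. With strong peaks alone the counts were 15 and 1, against 25.1% and 1.46%. At another 8 genes the first control peak began within 1 kb past the start, against 13.9% of all genes. It began 151 bp past the start at Lbr, 610 bp at Sc5d, 658 bp at Insig1, 747 bp at Mbtps1 and 855 bp at Srebf2. At Idi1, Ggps1 and Mbtps2 it began 857, 896 and 911 bp past the start. Under the inhibitor the starts of all 8 genes lay under the peak.

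**Figure D3:**
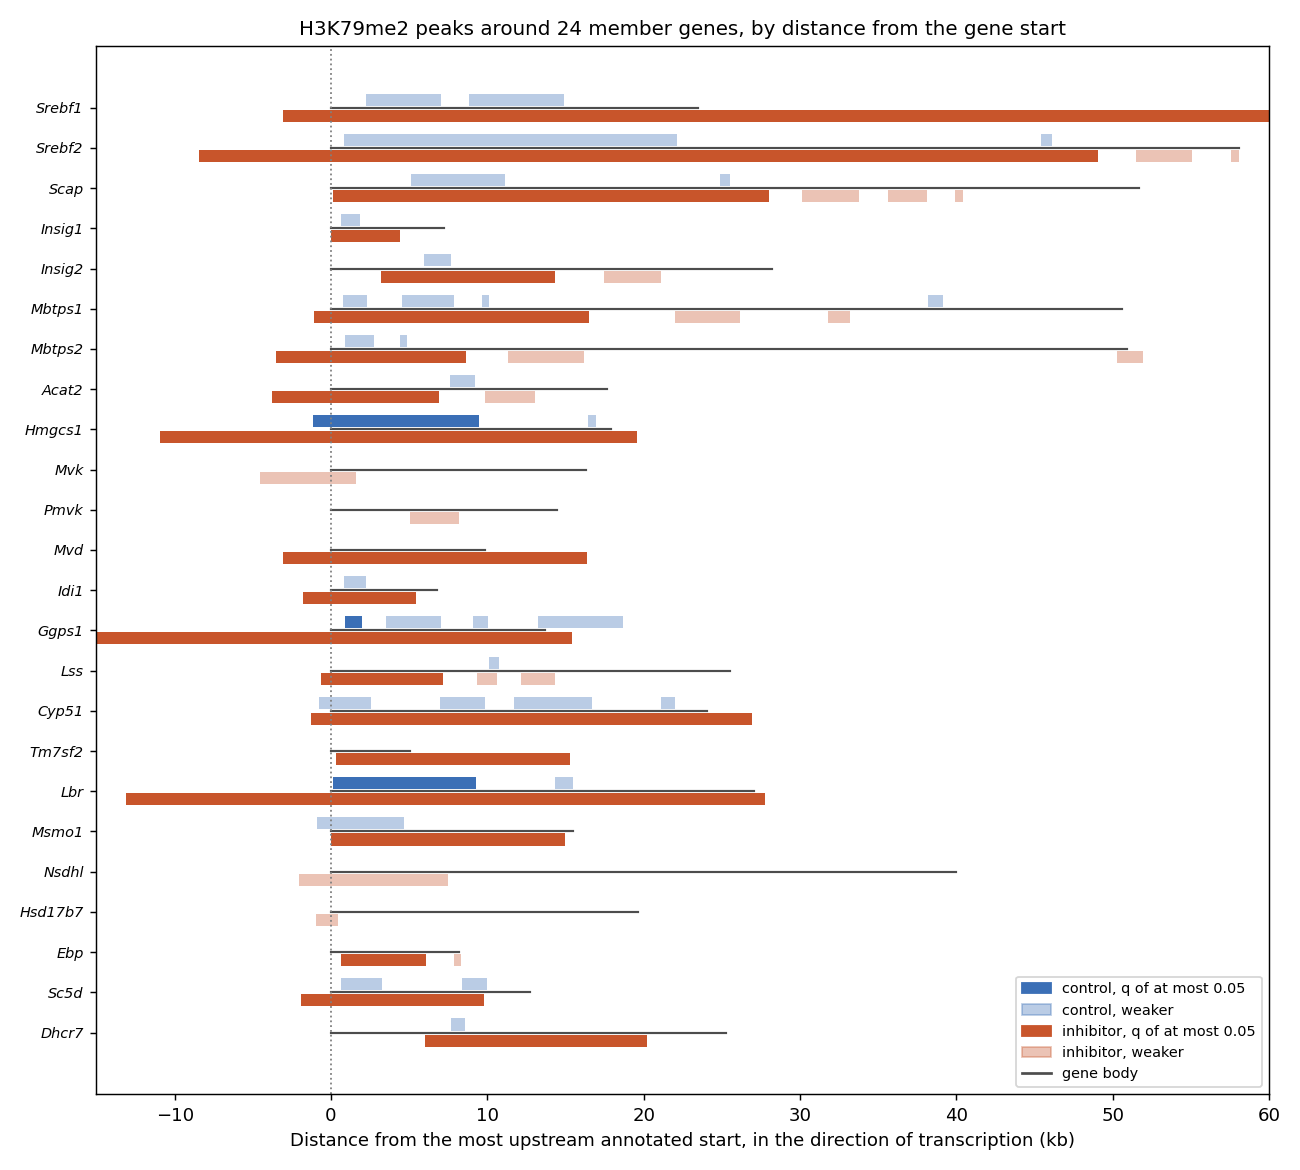
Peaks around 24 genes, by distance in kb from the most upstream annotated start in the direction of transcription (x axis). Black lines are gene bodies, blue bars control peaks and orange bars inhibitor peaks, pale where q is above 0.05. Bars stop at the edges of the plot, which cuts the inhibitor peaks at Srebf1 (to 127 kb) and Ggps1 (to −93.9 kb). Of the 17 genes with a control bar, 3 have one across the dotted start line, 8 have the first within 1 kb past it and 6 further on, and inhibitor bars cross the line at 18 of 24 genes.

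Along the gene, mean coverage by control peaks was highest from 1 to 2 kb past the start. Mean coverage by inhibitor peaks was nearly level over the first 7 kb, between 79.2% and 82.6%, with its highest value from 3 to 4 kb. Over all coding genes the inhibitor mean was highest from 1 to 2 kb. In the bin from 1 to 2 kb, the mean covered percent of the 24 genes was 45.1% under DMSO and 81.8% under the inhibitor. The values for all coding genes were 22.8% and 45.3%. In the first 1 kb the control mean was 22.1% and the inhibitor mean 80.9%, so the control coverage was lower there than in the next bin, and the inhibitor coverage was nearly level. In the 1 kb before the start the means were 13.2% and 67.3%, against 8.24% and 25.8% for all genes. From 14 to 15 kb past the start, where 16 of the genes still reach, the inhibitor mean was 66.4% and the control mean 22.6%. Bins from 9 kb on hold fewer than 20 of these genes.

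**Figure D4:**
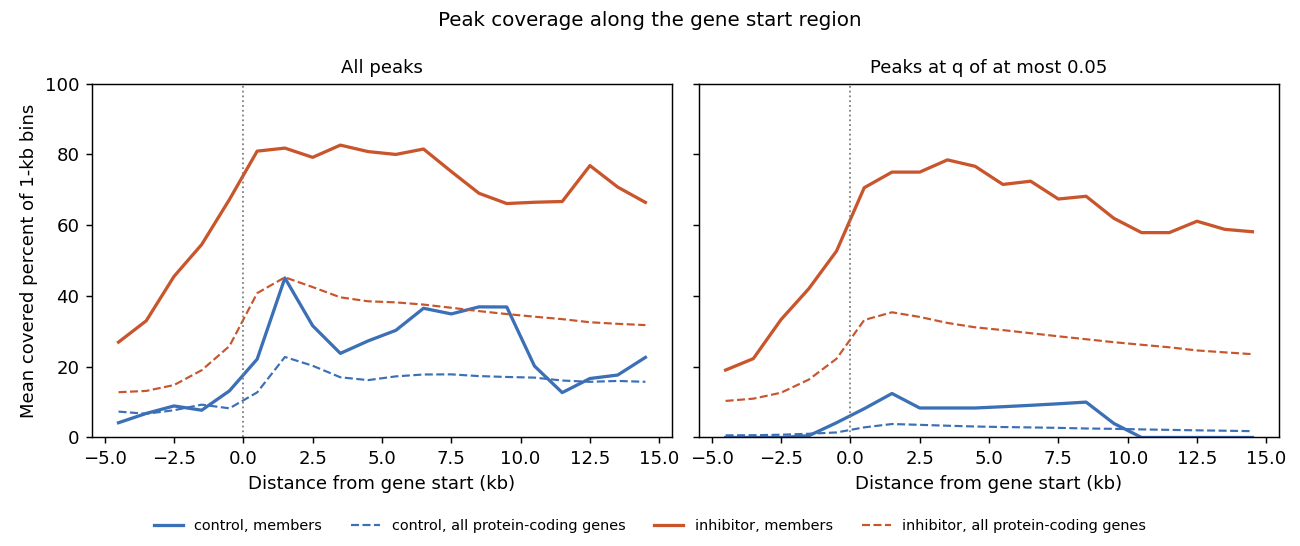
Mean covered percent of 1-kb bins (y axis) by distance from the gene start (x axis, kb), for all peaks (left) and peaks with q of at most 0.05 (right), 1 library per condition. Solid lines are the 24 pathway genes with a start and dashed lines 17492 coding genes, and bins past the start use only genes long enough to hold them. The solid orange line stays above 60% from the start to 15 kb with all peaks, and both control lines are highest in the bin from 1 to 2 kb.

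Several genes have more than 1 annotated start, and at Dhcr7, Insig2 and Pmvk the inhibitor peak lay at or after a downstream one. Dhcr7 has 3 starts (positions 143823167, 143823399 and 143830214 on chromosome 7), and the strong inhibitor peak covered the third alone. At Insig2 the peak covered the second and the third of 3 starts and began 3.17 kb past the most upstream one. At Pmvk, where neither of 2 starts was covered, the weak inhibitor peak began 19 bp past the second. At Srebf1, 1 of the control peaks began 300 bp past the second of 3 starts, and the other covered the third. The measure from the most upstream start therefore gives 0% for the first 5 kb of Dhcr7 and Pmvk in both lists, although each held inhibitor peaks further on.

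Several starts lie back to back with that of another gene, and a peak over both starts belongs to both genes. The start of Mvk lies 242 bp from that of Mmab, which encodes an enzyme of cobalamin metabolism. The weak inhibitor peak at this shared promoter covered 1.63 kb of Mvk and 4.51 kb on the Mmab side, and Mmab was covered over 33.1%. The start of Nsdhl lies 177 bp from that of Cetn2, a centrin gene covered over 39.3%. That of Dhcr7 lies 315 bp from that of Nadsyn1, which was covered over 9.62% under DMSO and 11.4% under the inhibitor. This most upstream start of Dhcr7 lay under no peak in either list. Of the 24 strong inhibitor peaks counted by gene, 19 extended past the gene, by a median of 1.72 kb over all 24, and 3 lay mostly outside it.

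In the 250 bases before the start, the sterol element TCACNCCAC was found at 1 of 24 genes, Hmgcs1, at positions −137 to −129 from the start, as printed above. It was found in 0.983% of 17492 promoters of coding genes. The E-box CACGTG, a sequence that SREBPs can also bind, was found at Insig1, Hsd17b7 and Sc5d (12.5%), against 6.65% of all promoters. The CCAAT box, the site of the cofactor NF-Y, was found at 19 of 24 (79.2%) against 36.5%, and 5 copies stood before Mvk. The GC box GGGCGG, the site of Sp1, was found at 18 of 24 (75%) against 42.7%. All 4 motifs were sought on both strands, and a match is a description of the letters only. The genes with the strongest and with the weakest peaks both carried CCAAT boxes, as Srebf2 and Hsd17b7 show.

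Other genes of sterol handling were counted as 3 lists, to be read against 26.1% of all genes marked under the inhibitor and 30.1% at least 25 points higher. Of 20 genes for sterol uptake, storage and efflux, 0 were marked under DMSO and 8 under the inhibitor, and 13 were at least 25 points higher under the inhibitor. Their median difference was 38.2 points. The largest differences were at Npc2, a lysosomal cholesterol carrier (5.11% and 78.0%), Mylip, a ubiquitin ligase of lipoprotein receptors (28.5% and 100%), and Abcg1, a cholesterol exporter (27.6% and 93.9%). Lipa, the lysosomal lipase (28.3% and 15.3%), and Vldlr, a lipoprotein receptor (8.95% and 1.94%), were covered further under DMSO, by less than 25 points. Of 14 genes for sterol sensing and degradation at the endoplasmic reticulum, 1 was marked under DMSO and 7 under the inhibitor, with 10 at least 25 points higher. Ube2g2, a ubiquitin-conjugating enzyme, was covered over 16.5% and 99.8%, Sar1b, a GTPase of the vesicles that leave the endoplasmic reticulum, over 11.4% and 89.9%, and Nploc4, a partner of the ATPase VCP, over 12.7% and 83.4%. Sec24d, a coat protein of those vesicles, was covered over 10.7% and 9.92%. Of 15 genes that use prenyl groups, 0 and 5 were marked and 7 were at least 25 points higher, with a median difference of 23.3 points. The 33.3% marked in this list lay nearest to the share of all genes, against 40% for uptake, storage and efflux and 50% for sensing and degradation. Dolk, dolichol kinase, was covered over 0% and 100%, Coq2, of ubiquinone synthesis, over 20.7% and 100%, and Rce1, a protease of prenylated proteins, over 0% and 49.7%. The coverage of Rce1 came from weak peaks alone. None of these 3 lists held a gene at least 25 points higher under DMSO.

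The labelled cell type was checked with marker genes. Of 12 T-lineage genes, 8 were marked under DMSO and 11 under the inhibitor, with Ptcra the exception. At least 25 points higher under the inhibitor were 9 of the 12 (75%), against 30.1% of all genes, so such a gain was not particular to the sterol genes. Cd3e was covered over 0% and 100%, by weak coverage alone. Of 10 genes of the OP9 stroma, 0 and 1 were marked, and 2 were at least 25 points higher under the inhibitor, each with a strong inhibitor peak. These were Thbs1, a thrombospondin (11.8% and 59.0%), and Pdgfrb, a growth factor receptor (9.18% and 45.3%). Col1a1, Col3a1 and Pdgfra held no peak in either list, and the other 5 were at 0% under the inhibitor. The part of stromal cells in the values of the 28 genes was not tested. Of 7 B cell genes 0 and 0 were marked, of 7 myeloid genes 0 and 1 (Cd68), and of 8 genes silent in blood 0 and 0. The median difference was −0.547 points for the stromal list and −6.77 for the myeloid list. The 2 lists also differ as a whole: the control list had 0.643% strong peaks and the inhibitor list 18.6%, over 11.1 and 153 Mb. The part of this difference in the values of the 28 genes was not tested.

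Because all coding genes include many without the mark, the 28 genes were also set beside the 7593 genes that hold a strong inhibitor peak. Of the 24 pathway genes in that set, 23 were at least 25 points higher under the inhibitor, against 74.8% of the set. Any control peak lay on 20 of 24 (83.3%), against 79.9%, and a strong one on 4 of 24 (16.7%), against 11.3%. Inhibitor peaks marked 21 of 24 (87.5%), against 69.0%, and control peaks marked 1 of 24 (4.17%), against 12.4%. This set was chosen by the inhibitor list itself, so these shares are descriptions.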

How the data were processed

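H3K79me2 ChIP libraries of 1 control and 1 inhibitor culture were used, and the 2 input samples are not analysed here. The submitters' processing notes name BWA, MACS2 2.1.0 and mm10 but give no options. The authors deposited 1 broad peak list per library with a fold enrichment (a ratio), the −log10 of p and of q (the p-value and q-value) and a score, the whole part of 10 times −log10 q. The lowest deposited −log10 p was 1.00 in both lists. Nothing in the lists gives the depth.

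Touching peaks were joined, and their overlap was taken with the gene bodies of RefSeq GRCm38.p6, the assembly that mm10 names, using pandas 2.3.3, numpy 2.4.6, scipy 1.17.1 and matplotlib 3.10.9 under Python 3.11.15. Starts and strands came from RefSeq promoter records, matched for 24 of 28 members. The most upstream start was used. Peaks counted as overlapping at 1 bp. No test compares the conditions, since each has 1 library. Coverage was tested on simulated peaks. The members, gene lists and thresholds were chosen with earlier results of these data known. All members are named, and from each other list up to 3 genes per direction, by the largest difference of at least 25 points. Acat3, Nadsyn1, Syvn1, Mrpl49, Lipa, Vldlr, Sec24d, Cd68, Ptcra, Pdgfra, Col1a1 and Col3a1 were named after their values were seen. Some genes of the pathway are not reported here.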

Additional observations from a re-analysis of the deposited data

How the results depend on the processing

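The median difference stayed between 48.8 and 63.4 points in 8 of 9 alternatives and was 0 points at equal covered length. In that setting the inhibitor list was restricted to its 244 strongest peaks by p, to match the length covered by the strong control peaks (11.1 Mb). It then marked 0 of the 28 genes, 0 were at least 25 points higher under the inhibitor, and 2 were at least 25 points higher under DMSO. Of 21887 coding genes it marked 267, with 0.914% higher under the inhibitor and 1.59% higher under DMSO. All kept peaks had a −log10 p of at least 16.8, and the highest on the 28 genes was 14.9. The difference turned at Hmgcs1 (−53.0 points), Lbr (−33.7), Sqle (−11.9) and Ggps1 (−7.89), since none of the 244 peaks lay on these genes. The count marked under DMSO was 1 in the main setting. It was 0 at −log10 q of at least 5, 0 at fold of at least 3, 0 when 80% of the gene had to be covered, 10 over the first 5 kb, 20 when any base was enough and 4 when peaks within 3 kb were merged, an alternative added after seeing the data. Of 21887 coding genes, control peaks marked 122, 101 and 2986 at the −log10 q, fold and 5-kb settings, and 55.3% held any covered base. The inhibitor list marked 11 of the 28 genes at 80%, and 14 of the 28 differed by at least 50 points. Shares of all genes at 80%, at 50 points and for the 3-kb merge are not given here. Merging within 1 kb changed nothing, as the smallest gap between peaks was 1443 bp. With strong peaks alone 4 of 4 control peaks were shared. By gene, 856 of the 858 coding genes with a strong control peak also held a strong inhibitor peak. Over the first 5 kb (the better covered end for the 4 genes without a start), 6 genes dropped under 25 points and 3 rose above it. In that window 20 of 28 were at least 25 points higher under the inhibitor, against 32.7% of all genes. At −log10 q of at least 5, 17 genes were still at least 25 points higher, and Scap, Insig2, Acat2, Mvd, Lss and Ebp were at 0 points. At fold of at least 3, 16 were, and Fdps was at 0 as well. The shares of all genes were then 13.2% and 12.9%. Without the 4 genes that overlap another coding gene, 20 of 24 were at least 25 points higher, against 30.1% of all genes, overlapping ones included. No paired analysis was possible because each condition has 1 library. Depth is unknown, so an absent peak does not show an absent mark.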
